A study of Mus musculus with 2 samples.

Results

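The glucocorticoid receptor gene Nr3c1 and 7 genes that the receptor is known to act on, Tsc22d3, Fkbp5, Per1, Sgk1, Dusp1, Klf9 and Txnip, were followed through the immune cells of the mouse cochlea after noise. They were 8 named genes of 31053 in the count matrix, named by the pathway. All 8 were detected, from 115 UMIs for Klf9 to 5502 UMIs for Dusp1 over 1285 cells. UMIs are unique molecular identifiers, that is, counted transcript molecules.

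Living CD45+ cells were sorted from cochleae that had been digested with Accutase, and profiled with droplet 3' single-cell RNA sequencing. There were 4 conditions, a sham-treated control and days 3, 7 and 14 after noise exposure, and each condition was 1 pool of cochleae from 6 mice, marked by its own hashtag antibody. The labels also call the control untreated, and they give no strain, age or sex and no noise level. Because each condition is 1 pool, no p-value is given between conditions. Intervals are at the 95% level and hold the error of counting alone. The 3 days share 1 sham pool, so that a direction seen on more than 1 day is no repeat.

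The 4 pools held 341 sham, 551 day 3, 216 day 7 and 177 day 14 cells, with median depths of 6528 to 8378 UMIs and median mitochondrial shares of 2.41% (day 3) to 3.96% (sham). Ptprc, which encodes CD45, had a UMI in 91.4% of the cells. Marker genes placed 1117 cells in 7 lineages: mature and immature neutrophils, B cell precursors, B cells, T cells, NK cells and mononuclear phagocytes. Free RNA was low beside the level in its source cells. Retnlg, a neutrophil transcript, stood at 38572 counts per 1000000 UMIs (CPM) in mature neutrophils and at 36.8 to 56.4 CPM in the lymphocytes and phagocytes, where it still had a UMI in 36.8% of B cell precursors. Camp, another neutrophil transcript, stood at 40920.5 CPM in immature neutrophils. It was at 45.9 CPM in phagocytes and up to 136 CPM in B cells, with a UMI in 47.8% of B cell precursors.

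The glucocorticoid receptor is a transcription factor that waits in the cytoplasm in a complex with the HSP90 chaperone and its partners, binds the adrenal hormone corticosterone, and moves to the nucleus. There it binds a palindromic DNA element and raises, among others, genes that damp inflammation or that limit the hormone signal itself. Glucocorticoids are used to treat hearing loss of acute onset, they restrain developing lymphocytes, and they alter the traffic and life span of neutrophils. Several of the targets also answer to other signals, Dusp1 to stress kinases, Per1 to the circadian clock and Txnip to glucose.

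Promoters are shown for 4 targets as examples of a hormone element or an element of another signal. RefSeq start windows on GRCm38.p6, each reaching from 250 bases before to 50 bases after a start, were present for 7 of the 8 genes (15 windows), with none for Nr3c1. Each sequence is given 5′ to 3′ on the strand of the gene, before the start of its window and outside the gene's annotated exons. The element is in capitals. The Sgk1, Dusp1 and Per1 stretches lie within the annotated span of their gene, so that other exons can lie upstream of them. The full hormone element was searched as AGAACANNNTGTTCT, a relaxed form as GNACANNNTGTNC, which overlaps the full form, the cyclic AMP element as TGACGTCA and the E-box, the site of clock proteins, as CACGTG, all on both strands.
Sgk1: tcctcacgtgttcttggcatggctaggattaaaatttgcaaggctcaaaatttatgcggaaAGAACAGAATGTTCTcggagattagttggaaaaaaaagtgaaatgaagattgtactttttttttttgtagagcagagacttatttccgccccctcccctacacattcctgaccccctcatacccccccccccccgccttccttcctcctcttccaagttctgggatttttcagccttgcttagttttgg
Txnip: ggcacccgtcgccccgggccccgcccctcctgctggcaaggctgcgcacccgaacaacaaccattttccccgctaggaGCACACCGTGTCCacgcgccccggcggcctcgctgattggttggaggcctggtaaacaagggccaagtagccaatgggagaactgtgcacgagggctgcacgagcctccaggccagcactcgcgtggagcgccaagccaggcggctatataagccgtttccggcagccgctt
Dusp1: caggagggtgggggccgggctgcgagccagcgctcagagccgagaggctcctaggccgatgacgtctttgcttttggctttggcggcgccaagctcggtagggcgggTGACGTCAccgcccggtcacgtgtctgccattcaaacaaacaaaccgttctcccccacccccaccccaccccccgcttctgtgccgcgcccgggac
Per1: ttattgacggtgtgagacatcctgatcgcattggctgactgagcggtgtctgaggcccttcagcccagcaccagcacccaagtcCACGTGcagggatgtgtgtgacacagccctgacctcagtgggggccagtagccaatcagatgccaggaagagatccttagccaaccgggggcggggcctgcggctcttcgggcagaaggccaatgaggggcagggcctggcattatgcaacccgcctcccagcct

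The Sgk1 window, at chr10:21993640-21993889 on the plus strand, holds the full hormone element 189 bases before the start. Of 32851 windows of the same length, 3 hold it, or 0.00913%. Sgk1 has 6 start windows, and the full form was found in this one. The Txnip stretch, at chr3:96557707-96557956 on the plus strand, holds the relaxed form 172 bases before the start, as do 0.475% of all windows. Gm15441, an antisense gene, overlaps Txnip (chr3:96557957-96561883), and no source used here says whether counting went by strand, so the values of the pair are uncertain to that extent. The same holds for Dusp1 (chr17:26505590-26562128) and Ergic1, and for Fkbp5, which genes on the opposite strand also overlap. The Dusp1 stretch, at chr17:26508520-26508722 on the minus strand, holds the cyclic AMP element at 143 bases (1.79% of all windows), and the Per1 stretch, at chr11:69098699-69098947 on the plus strand, an E-box at 166 bases (7.15%). E-boxes were found in other windows too, left in lower case or not printed: 126 bases before the start in Dusp1, 246 bases in Sgk1 and 169 bases in Fkbp5. A match describes the letters in the window and shows no binding.

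Nr3c1 ranged from 76.6 to 165 CPM over the lineages. Its level, averaged over the pools with at least 15 cells of a lineage, was 165 ± 11.7 CPM in B cells (SD, n = 2 pools), 151 ± 20.3 in mature neutrophils (n = 4), 115 ± 30.1 in T cells (n = 2), 95.5 ± 26.3 in NK cells (n = 3), 78.3 ± 35.4 in mononuclear phagocytes (n = 2), 78.0 ± 15.8 in immature neutrophils (n = 4) and 76.6 ± 21.8 in B cell precursors (n = 4). No pair of neighbours in this order had ranges that were apart. Between the ends the ranges did separate: mature neutrophils spanned 133 to 173 CPM and immature neutrophils 57.1 to 94.7 CPM. After each cell was thinned to 2000 UMIs, which left out shallower cells, 27.9% (22.9% to 33.3%) of 301 mature neutrophils had an Nr3c1 UMI, against 18.6% (13.1% to 25.2%) of 172 immature neutrophils. Unthinned, the order was the other way, 59.8% and 67.2%, since immature neutrophils were deeper, with a median of 16316 UMIs against 5746.

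**Figure D1:**
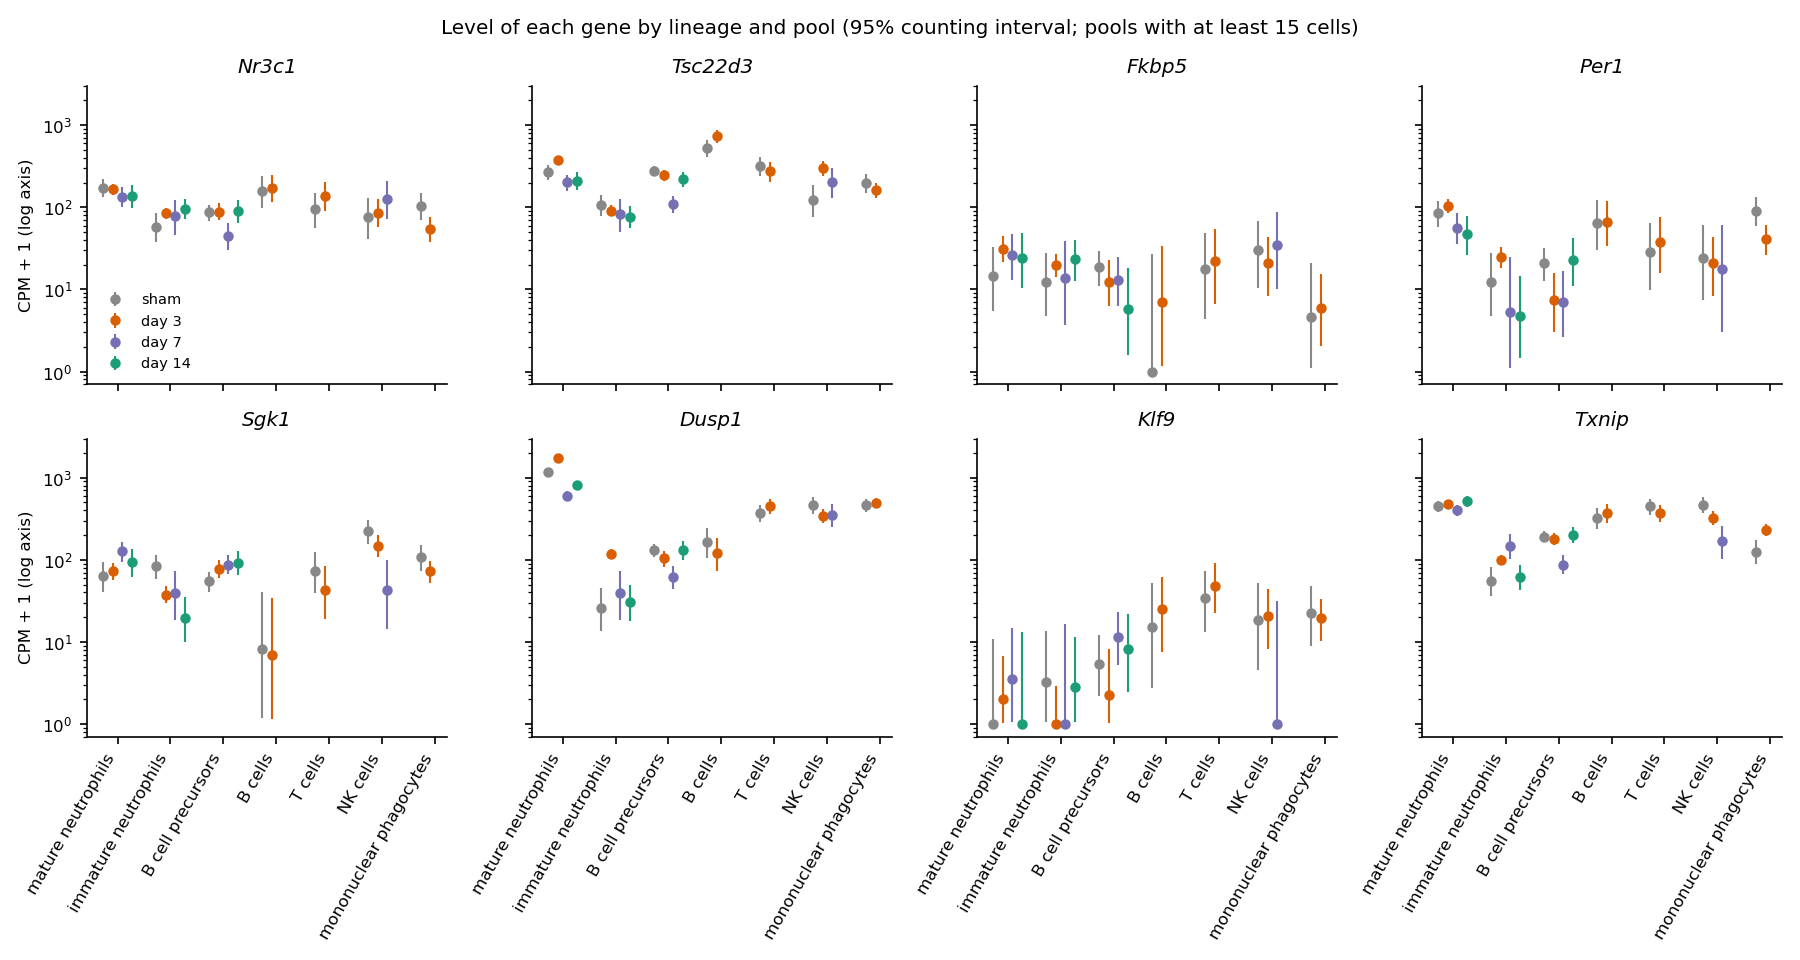
Level of each gene in each lineage (x axis) and pool (colour), in CPM plus 1 on a log axis, with 95% counting intervals; pools with under 15 cells of a lineage are not drawn. Dusp1 spans from 52.4 CPM in immature neutrophils to 1083 CPM in mature neutrophils, while the lineage means of Nr3c1 span 76.6 to 165 CPM.

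Per1, Dusp1 and Txnip were highest on average in mature neutrophils, Fkbp5 and Sgk1 in NK cells, Tsc22d3 in B cells and Klf9 in T cells. Tsc22d3 (chrX:140539528-140600659, minus strand, GRCm38) encodes GILZ, a leucine zipper protein that restrains inflammatory transcription factors. It was highest in B cells, at 527 CPM in sham and 734 CPM on day 3 (mean 630 ± 147, n = 2), apart from T cells, the next in order, at 293 ± 29.3 (n = 2). Mature neutrophils, B cell precursors, NK cells and mononuclear phagocytes followed at 263, 212, 207 and 178 CPM. Neighbours in this order had overlapping ranges, while those of mature neutrophils (200 to 379) and phagocytes (160 to 196) were apart. Immature neutrophils were lowest, at 76.1 to 105 CPM in the 4 pools.

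Fkbp5 (chr17:28399094-28517527, minus strand) encodes FKBP51, a co-chaperone that lowers the receptor's affinity for hormone and so closes a feedback loop. It was sparse in all lineages, from 27.4 ± 7.02 CPM in NK cells (n = 3) and 23.0 ± 7.03 in mature neutrophils (n = 4) down to 2.98 CPM in B cells, where 79 cells held 1 UMI in all. No neighbours in its order had ranges apart.

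Per1 (chr11:69095217-69109960, plus strand) encodes a repressor of the circadian clock. Its levels in mature neutrophils were 83.7, 102, 55.1 and 46.1 CPM in sham, day 3, day 7 and day 14, a mean of 71.9 ± 26.0, with B cells at 64.8 and mononuclear phagocytes at 64.5 CPM within that range. Immature neutrophils stood at 3.71 to 23.6 CPM, below all 4 mature pools.

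Sgk1 (chr10:21882184-21999903, plus strand) encodes a kinase that acts on ion channels and on cell survival. In NK cells its level was 222 CPM in the sham pool, then 148 and 41.8 CPM in the pools of days 3 and 7, so that the mean of 137 ± 90.4 (n = 3) had the widest spread of its order. One cell held 47.4% of the 38 sham UMIs. Sgk1 was nearly missing from B cells, at 7.12 CPM in sham and 5.97 on day 3, or 1 UMI each, whereas B cell precursors held 53.7 to 91.5 CPM in the 4 pools. The ranges of the B cells and the precursors did not meet in pools with at least 15 cells, while the 8 B cells of day 14 held 5 UMIs (86.1 CPM).

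Dusp1 encodes a phosphatase that switches off stress kinases. Mature neutrophils held 1188, 1735, 604 and 804 CPM in sham, day 3, day 7 and day 14, a mean of 1083 ± 498. Mononuclear phagocytes (479 ± 27.0, n = 2), T cells (410 ± 57.6, n = 2) and NK cells (383 ± 67.3, n = 3) formed a middle tier, above B cells (142 CPM), B cell precursors (106) and immature neutrophils (52.4). At 2000 UMIs per cell, 66.4% (60.8% to 71.8%) of mature neutrophils and 9.30% (5.41% to 14.7%) of immature neutrophils had a Dusp1 UMI.

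Klf9 (chr19:23141226-23168134, plus strand) encodes a zinc finger transcription factor. It stood highest in T cells, at 33.0 CPM in sham and 47.1 on day 3, and was close to missing from neutrophils. The 321 mature neutrophils held 2 Klf9 UMIs and the 180 immature neutrophils another 2, and in the sham pool, where mature neutrophils had 0, a count of 0 allows up to 8.10 CPM (3 UMIs of that pool's total). Klf9 therefore gave no ratio to sham in either lineage tested below.

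Txnip encodes an arrestin-like protein that binds thioredoxin and limits glucose uptake. It was high in mature neutrophils (451, 475, 398 and 514 CPM, mean 460 ± 48.4) and in T cells (409 ± 52.4, n = 2), and low in immature neutrophils (54.8, 99.3, 145 and 61.3 CPM). The ranges of these neutrophil groups were apart.

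Mature neutrophils exceeded immature neutrophils in all 4 pools for 6 of the 8 genes: Nr3c1, Tsc22d3, Fkbp5, Per1, Dusp1 and Txnip. The share of all genes with this direction in all 4 pools is not given here, so the count describes these 8 genes alone. On the log2(CPM + 20) scale the mean difference was 3.97 for Dusp1, 2.19 for Txnip, 1.58 for Per1, 1.35 for Tsc22d3, 0.81 for Nr3c1 and 0.24 for Fkbp5. The exact sign-flip permutation test over 4 pools gave p = 0.13 (two-sided) for each of these, the smallest p it allows. Sgk1 was higher in 3 of 4 pools (0.81, exact p = 0.25, two-sided).

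The difference continued within the mature gate, in a split made after the data had been seen. Mature neutrophils were divided at 50 UMIs of immature marker genes (such as Camp, Ngp and Ltf, which encode granule proteins) per 10000 UMIs. Dusp1 in granule-rich and granule-poor cells of the sham pool stood at 285 and 2136 CPM. The same pair was 227 and 2685 CPM for day 3, 158 and 1007 CPM for day 7, and 84.0 and 1197 CPM for day 14. In every pool Dusp1, Txnip, Tsc22d3 and Per1 were lowest in immature, higher in granule-rich and highest in granule-poor cells. Nr3c1 kept this order in 3 of 4 pools, with means of 78.0, 101 and 191 CPM. Fkbp5 and Klf9 kept it in 0 of 4 pools. The share of all genes that keep this order is not given here, so it does not set these genes apart from others. Granule transcripts move with this split by its construction: the 7 immature markers took 92743 CPM in immature and 9490 CPM in all mature neutrophils, and their part in these CPM values was not tested.

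**Figure D2:**
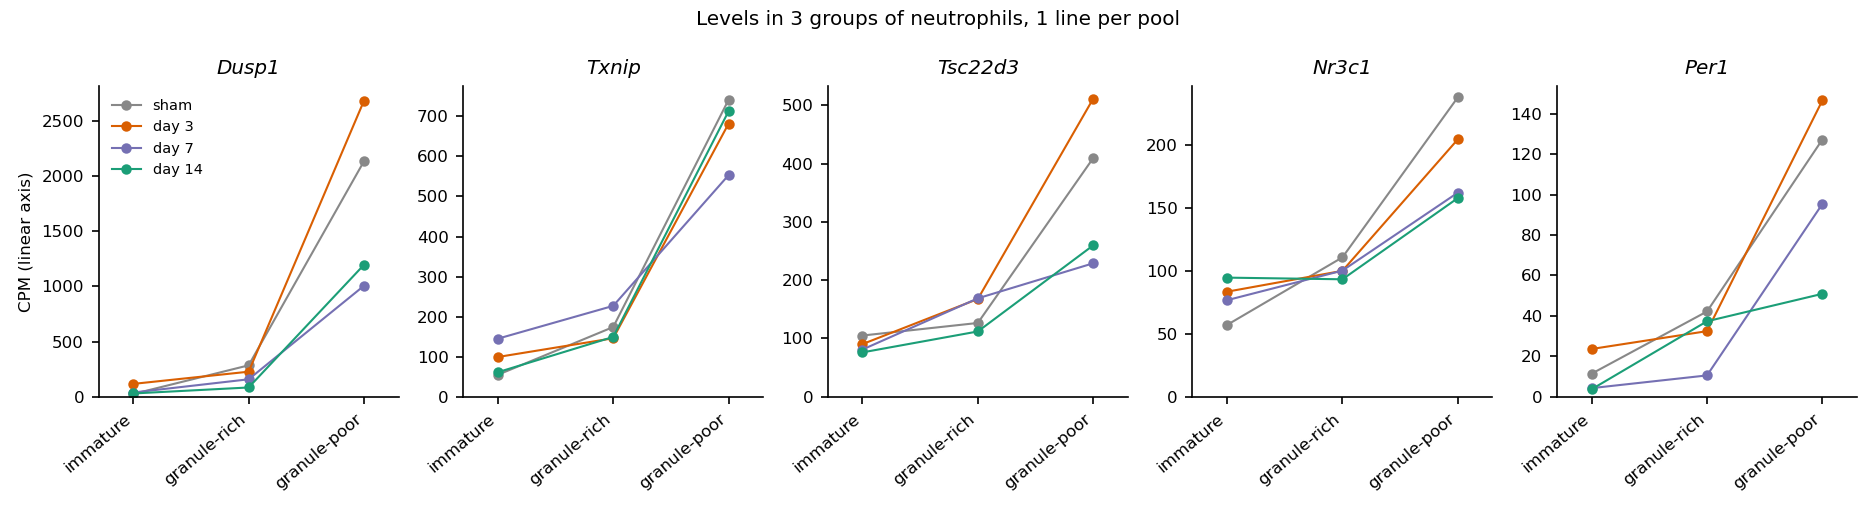
Levels in CPM (linear axes from 0, a separate scale for each gene) in immature, granule-rich mature and granule-poor mature neutrophils, 1 line per pool. Dusp1 averages 52.4, 189 and 1756 CPM over the 3 groups, and its day 3 and sham lines end above those of day 7 and day 14.

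The B lineage had its own order. Tsc22d3 and Txnip were lowest in cycling B cell precursors, higher in the other precursors and highest in B cells in all 4 pools. Tsc22d3 averaged 85.6 ± 29.5, 337 ± 70.7 and 579 ± 130 CPM, and Txnip 71.2 ± 28.2, 252 ± 61.6 and 386 ± 51.4 CPM (SD, n = 4 pools, of which day 7 and day 14 had 11 and 8 B cells). Fkbp5 went the other way: 19.6 ± 7.69 CPM in cycling precursors against 3.16 ± 3.83 in the others. Sgk1 was highest in the non-cycling precursors on average (97.4 ± 27.2) and in all 4 pools lower in B cells. The share of all genes with each of these orders is not given here either. Cycling cells were those with at least 3 of 12 cell cycle genes, 5 or more of their UMIs, and 10 or more per 10000.

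**Figure D3:**
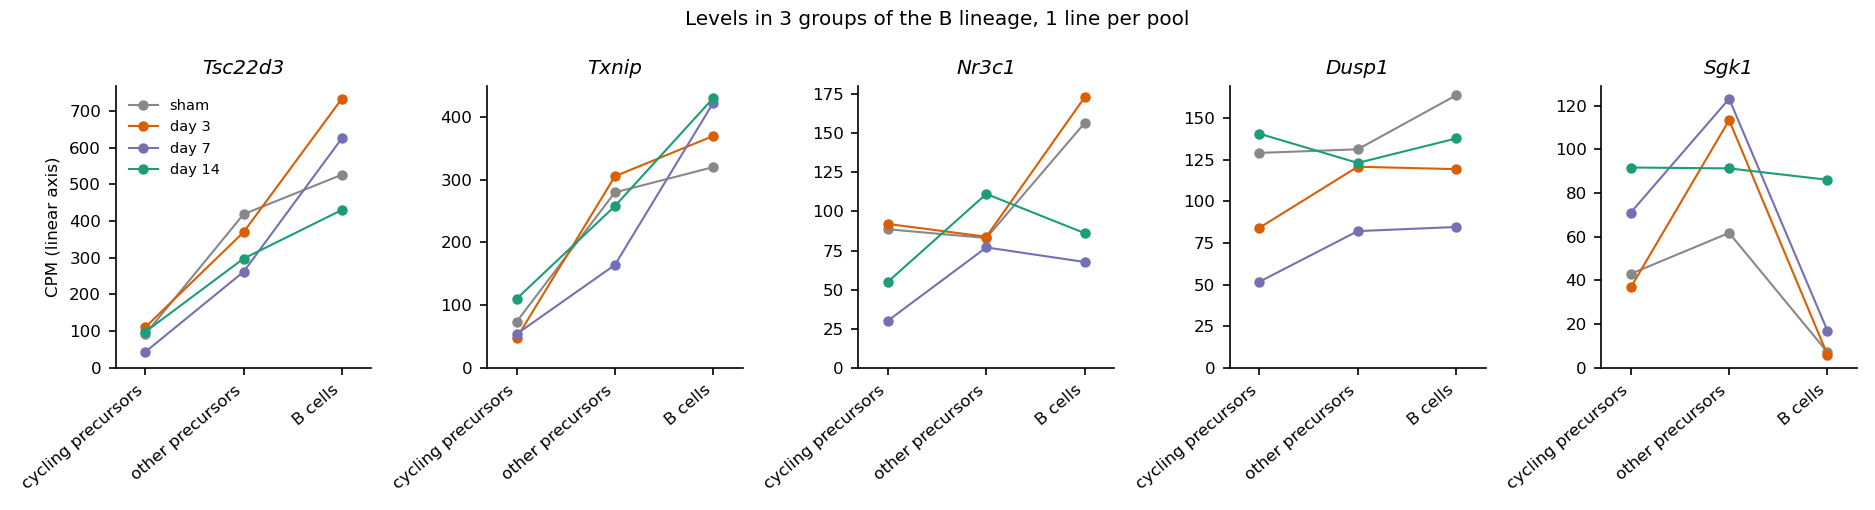
Levels in CPM (linear axes from 0, a separate scale for each gene) in cycling B cell precursors, other precursors and B cells, 1 line per pool. All 4 lines climb for Tsc22d3 and Txnip, and all 4 drop from the other precursors to B cells for Sgk1.

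Ratios to sham could be formed in mature neutrophils and B cell precursors, the lineages with at least 30 cells in every pool. A gene counted as measured when both pools together held 20 or more of its UMIs, and called when its CPM ratio to sham was at least 1.5 either way. Klf9 was not measured in any of the 6 comparisons, and Fkbp5 in 3 of them.

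In mature neutrophils on day 3, Dusp1 and Tsc22d3 were the members set apart from sham by their intervals. Dusp1 had 1659 UMIs against 440 in sham, a ratio of 1.46 (1.31 to 1.63), and Tsc22d3 362 against 98, a ratio of 1.43 (1.14 to 1.81), both just under the 1.5-fold mark. Of 7 members measured, 1 was at least 1.5-fold higher and 0 lower, where 14.1% of all 4029 genes measured were higher and 9.18% lower. The called member was Fkbp5, at 29 against 5 UMIs, whose interval of 0.860 to 7.43 includes 1. Nr3c1 (0.950), Txnip (1.05), Sgk1 (1.14) and Per1 (1.22) had intervals that include 1. The members' median log2 ratio was 0.29, beside 0.02 over all genes measured. Genes of the immediate early and dissociation list, which respond to stress within minutes and also to tissue digestion, had a median of 0.12, with 3 of 15 measured higher and 1 lower. They included Nr4a1 at 1.94 (1.47 to 2.58) and Fos at 1.53 (1.40 to 1.68), while Jun, named after its value was seen, was at 0.607 (0.376 to 0.993).

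On day 7 Dusp1 was on the other side of sham. It stood at 604 CPM against 1188, a ratio of 0.508 (0.432 to 0.596), and Sgk1 at 125 CPM against 62.1, a ratio of 2.02 (1.21 to 3.46). Per1 was at 0.658 (0.363 to 1.17). Of 6 members measured, 1 was higher and 2 lower (11.0% of genes higher and 11.0% lower in the background), with a median log2 ratio of −0.39 beside −0.02. Tsc22d3 had a ratio of 0.757 (0.557 to 1.03) and Nr3c1 of 0.768 (0.524 to 1.12), with counts too few to set them apart from sham. Immediate early genes were lower with Dusp1: 8 of 15 measured were at least 1.5-fold lower and 0 higher, with a median of −0.63, led by Egr1 (0.279, 0.20 to 0.38) and Junb (0.409, 0.37 to 0.45). Their part in the Dusp1 ratio was not tested.

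On day 14 Dusp1 was again below sham, at 804 CPM and a ratio of 0.677 (0.576 to 0.793), just inside the 1.5-fold mark. Per1, at 14 UMIs against 31, was the 1 member of 6 called lower (0.551, 0.271 to 1.07), and 0 were higher (12.6% of genes lower and 9.37% higher in the background). Sgk1 had a ratio of 1.49 (0.825 to 2.70). The members' median log2 ratio was −0.35 beside −0.03. The immediate early list stood at −0.33.

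Granule-poor cells were 65.5%, 77.9%, 69.8% and 80.4% of the mature neutrophils of sham, day 3, day 7 and day 14. Within granule-poor cells alone the Dusp1 ratio was 1.26 (1.12 to 1.41) on day 3, 0.471 (0.397 to 0.559) on day 7 and 0.560 (0.474 to 0.661) on day 14. In granule-rich cells it was 0.798 (0.560 to 1.14), 0.556 (0.343 to 0.884) and 0.295 (0.128 to 0.602) on the same days. The day 3 interval thus lay above 1 in granule-poor cells and included 1 in granule-rich cells, and these intervals overlap. Tsc22d3 in granule-poor cells was lower on day 7 (0.559, 0.381 to 0.815) and day 14 (0.634, 0.435 to 0.919), and its day 3 interval included 1 (1.25, 0.966 to 1.63). Called members among these cells on day 14 numbered 4 of 6, all lower, beside 17.9% of all genes measured there. Sgk1 on day 7 was 1.37 (0.720 to 2.68) in the granule-poor and 3.83 (1.52 to 11.5) in the granule-rich cells, the latter on 6 sham UMIs.

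**Figure D4:**
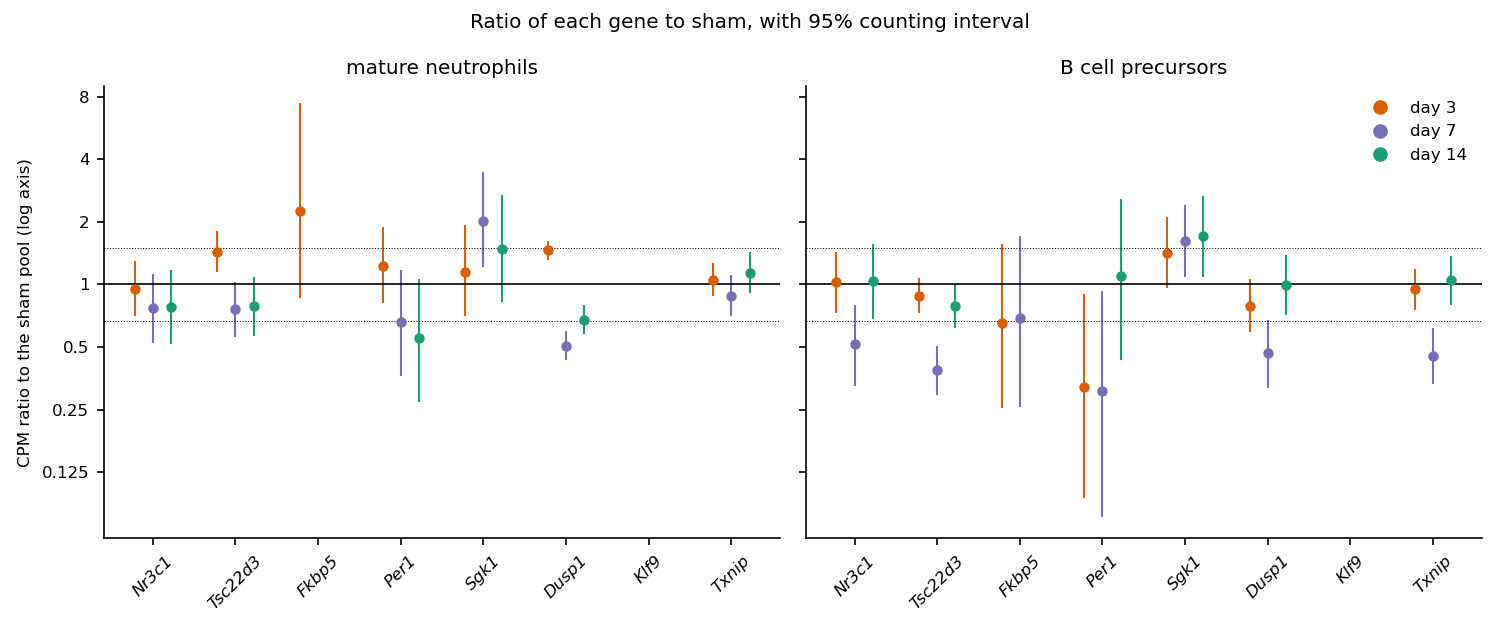
CPM ratio of each gene to the sham pool on a log axis, with 95% counting intervals, in mature neutrophils (left) and B cell precursors (right), coloured by day; dotted lines mark 1.5-fold either way. On day 7 in B cell precursors 5 genes lie below the lower line while Sgk1 lies above the upper one.

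In the summed counts of B cell precursors the receptor and most of its measured targets were lower on day 7. Nr3c1 stood at 44.0 CPM (29 UMIs) against 85.4 in sham (78 UMIs), a ratio of 0.515 (0.324 to 0.798). Tsc22d3 was at 108 CPM against 277, a ratio of 0.389 (0.294 to 0.508). Txnip was at 0.454 (0.330 to 0.615), Dusp1 at 0.466 (0.317 to 0.671) and Per1, on 4 against 18 UMIs, at 0.308 (0.0758 to 0.935). Sgk1 went the other way, with 86.5 against 53.7 CPM and a ratio of 1.61 (1.08 to 2.41), and 1 cell held 22.8% of its day 7 UMIs. Of 7 members measured 5 were lower and 1 higher, where 10.9% of 6997 genes were lower and 13.4% higher. Their median log2 ratio was −1.10, beside 0.06 over all genes measured. When each cell instead had the same weight, the Nr3c1 ratio was 0.892, which ends its call, and the count of called members was 4 of 7. Tsc22d3 was then at 0.555, Txnip at 0.685, Dusp1 at 0.482, Per1 at 0.477 and Sgk1 at 1.44. The calls of Txnip and Sgk1 thus ended too, while Fkbp5 became called.

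The sham precursors held 1 cell rich in plasma cell transcripts, with 5034 of their 5039 UMIs of Jchain, which encodes the joining chain of secreted antibodies, and 5.76% of all their UMIs. The plasma cell list stood at 6357 CPM in the sham precursors, against 700, 716 and 929 CPM on days 3, 7 and 14, and at 682 CPM without that cell. Without it the day 7 ratios were 0.492 for Nr3c1, 0.369 for Tsc22d3, 0.465 for Txnip, 0.446 for Dusp1, 0.290 for Per1 and 1.52 for Sgk1. Fkbp5, on 8 against 16 UMIs, moved from 0.693 to 0.653 and so just joined the called members. Of its day 7 UMIs, 1 cell held 37.5%. This made 7 of 7 called, with Sgk1 higher and the rest lower.

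On day 3 and day 14 most measured members were not called lower in the precursors. On day 3 the ratio of Nr3c1 was 1.03 (0.732 to 1.44), of Tsc22d3 0.881 (0.727 to 1.07) and of Txnip 0.948 (0.754 to 1.19). The members called lower were 2 of 7, Per1 (0.323, 0.0936 to 0.902) on 5 UMIs and Fkbp5 (0.653, 0.254 to 1.57) on 9, and 0 were higher (6.45% of genes lower and 11.0% higher in the background). On day 14 Sgk1 was the 1 member of 6 called, at 1.70 (1.09 to 2.66), with 0 lower (12.3% of genes higher and 10.0% lower in the background), and Dusp1 was at 0.997 (0.709 to 1.39). The Sgk1 ratio was thus above 1 on all 3 days, against the same sham pool, but the day 3 interval includes 1 (1.42, 0.959 to 2.12). On day 3 Sgk1 was at 1.84 (1.14 to 2.98) in non-cycling and 0.855 (0.390 to 1.84) in cycling precursors. On day 14 these were 1.48 (0.826 to 2.61) and 2.13 (0.991 to 4.54). Tsc22d3 on day 14 was at 0.791 in all precursors, not called. It was at 0.711 (0.539 to 0.928) in non-cycling precursors, an interval below 1, and at 1.07 (0.556 to 1.98) in cycling ones.

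Other measures also differed from sham in the day 7 pool. All 12 cell cycle genes were at least 1.5-fold higher than sham there (median log2 ratio 1.18), where 13.4% of all genes measured were higher. They were also higher on day 3 (7 of 12, 1 lower, median 0.69) and day 14 (8 of 12, 0 lower, median 0.86). Of all genes measured, 11.0% and 12.3% were higher on those days. Cycling cells made up 34.5% (22.2% to 48.6%) of the day 7 precursors against 21.2% (13.8% to 30.3%) in sham. By UMIs, cycling cells gave 70.4% of the day 7 sum and 43.3% of the sham sum. Immediate early genes were lower on day 7 as well, 11 of 17 measured and 0 higher, with a median of −0.67. Of all genes measured that day, 10.9% were lower and 13.4% higher.

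Within non-cycling precursors, a split made after the data were seen, the day 7 ratios were 0.625 (0.451 to 0.851) for Tsc22d3, 0.587 (0.387 to 0.865) for Txnip and 0.626 (0.339 to 1.09) for Dusp1. Nr3c1 was at 0.928 (0.479 to 1.70) there, and its lower level was seen in cycling cells, at 30.2 CPM against 88.6 in sham (0.340, 0.169 to 0.649). Sgk1 was at 1.99 (1.12 to 3.49) in the non-cycling cells. Of 5 members measured in these 36 day 7 cells, 3 were lower and 1 higher, and 5 of 15 immediate early genes were lower too. Of all 4626 genes measured there, 527 (11.4%) were lower and 755 higher. In cycling cells Tsc22d3 was at 0.473 (0.259 to 0.839), Dusp1 at 0.400 (0.236 to 0.663) and Txnip at 0.734 (0.412 to 1.30). Vpreb1, a surrogate light chain gene of early precursors, stood at 915 CPM in sham and 1093 CPM on day 7 in the non-cycling cells. Its partner Igll1 was at 390 and 693 CPM, the recombination genes Dntt at 463 and 441 CPM and Rag1 at 344 and 364 CPM, and Ms4a1, which encodes CD20 of later B cells, at 156 and 108 CPM. The part of stage in the ratios was not tested.

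The other lineages had under 30 cells in at least 1 pool and are given by level. Tsc22d3 in NK cells was at 122 CPM (75.8 to 187) in the sham pool and at 299 CPM (240 to 367) for day 3, on 21 and 91 UMIs. These intervals do not meet, and days 7 and 14 followed at 200 CPM (128 to 298) and 105 CPM (50.2 to 192). Txnip in NK cells stood at 466 CPM in sham and 167 on day 7, from 25 and 15 cells. In immature neutrophils Dusp1 was at 25.1, 117, 38.4 and 29.7 CPM, highest on day 3, where 1 of 113 cells held 23.0% of its UMIs. Sgk1 in the same cells was at 82.2, 36.8, 38.4 and 18.6 CPM, and 1 cell held 47.2% of its sham UMIs. In mononuclear phagocytes Per1 stood at 89.1 (57.6 to 131) CPM in sham and 39.95 (25.6 to 59.4) on day 3, and Nr3c1 at 103 (69.2 to 148) and 53.3 (36.4 to 75.2). On days 7 and 14, from 14 and 9 cells, Per1 was at 32.5 and 113 CPM and Nr3c1 at 92.8 and 121 CPM.

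The machinery that folds and assists the receptor is covered by a list of 18 genes of chaperones, coregulators and steroid enzymes. In B cell precursors on day 7, 1 of 15 measured was lower, the coactivator Ncoa3 (0.591, 0.38 to 0.91), and 0 were higher, with a median log2 ratio of 0.03 (10.9% of all genes lower and 13.4% higher). The chaperone Hsp90ab1 was at 1.14 (1.06 to 1.24) and Hspa8 at 0.813 (0.75 to 0.88). In mature neutrophils on day 7, 2 of 12 were lower and 0 higher, with a median of −0.06 (11.0% of all genes each way), and Hspa8, which loads the receptor onto HSP90, was at 0.502 (0.38 to 0.66).

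Of a list of 24 further glucocorticoid targets, 5 of 13 measured in the day 7 precursors were lower and 1 higher, with a median log2 ratio of −0.53 (10.9% of all genes lower and 13.4% higher). Nfkbia, the inhibitor of NF-kappaB, was at 0.546 (0.49 to 0.61), the chemokine receptor gene Cxcr4 at 0.690 (0.61 to 0.78), and Rhob at 0.609 (0.38 to 0.96). In mature neutrophils on day 7, 3 of 12 were lower and 2 higher (median −0.09, beside 11.0% of all genes each way), with Nfkbia at 0.394 (0.29 to 0.54) and Cxcr4 at 1.56 (1.20 to 2.04). On day 3 the same list in mature neutrophils had 1 of 12 higher and 0 lower (14.1% and 9.18% of all genes), with Cebpb, a myeloid transcription factor, at 1.47 (1.36 to 1.58) and Rhob at 1.64 (1.13 to 2.42).

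The genes whose pattern was nearest to each member were read over 21 sums of a lineage and a pool with at least 15 cells, on log2(CPM + 20), among 5180 candidates. These sums share libraries, depth and lineage, so the values are descriptive. Tsc22d3 was nearest to Pcf11 (Pearson r = 0.90), Slc15a2 (0.89) and Sik1 (0.84), Dusp1 to Jaml (0.92), Kpna4 (0.91) and Srgn (0.90), and Txnip to H2-D1 (0.89), Cd53 (0.89) and Btg1 (0.88). Per1 was nearest to Samhd1 (0.88), Tbc1d14 (0.84) and the immediate early gene Egr1 (0.84), Nr3c1 to Stk17b (0.80), and Sgk1 to Pgm1 (0.84). Among the members, Dusp1 and Txnip were the closest pair (0.79), Nr3c1 had 0.68 with Tsc22d3 and 0.12 with Fkbp5, and Sgk1 had −0.39 with Nr3c1.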

How the data were processed

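Live CD45+ cochlear cells from 4 hashtagged pools were measured in 1 gene library and 1 hashtag library. The deposited values are UMI counts per gene and barcode, written by Cell Ranger 3.1.0 per the file headers (build mm10 per the submitters' processing notes). The calling of barcodes is not given in the sources used. The labels name both kit v2 and v3.

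A barcode took the condition of its top hashtag (at least 10 UMIs and 80% of hashtag UMIs), which held for 1359 of 1556 barcodes, and was kept with at least 200 genes and at most 10% mitochondrial UMIs. A lineage needed at least 3 distinct markers, 5 marker UMIs and 10 per 10000 (50 for neutrophils); 64 cells lay near this gate, 41 of them mature neutrophils. Barcodes in more than 1 lineage were left out as possible doublets, and no doublet caller was run. Counts were summed per lineage and pool and divided by the total (CPM); ratios carry exact conditional Poisson intervals and shares Clopper-Pearson intervals, at 95%. Lineage totals behind the ratios ranged from 303446 to 956215 UMIs. Code was tested on simulated data (Python 3.11.15 with scipy 1.17.1, numpy 2.4.6, pandas 2.3.3 and matplotlib 3.10.9).

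All 8 members are named. In other lists up to 4 genes are named per lineage and day, those whose interval bound nearest to 1 is farthest from 1, plus Jun. Vpreb1, Igll1, Dntt, Rag1, Ms4a1, Jchain, Ptprc, Retnlg, Camp and Gm15441 are named to describe cells or a locus. Likeness names up to 3 genes per member. Members and lists were chosen with earlier results of these data known. The minimum of marker UMIs per 10000 and the cycling and granule splits were set after the data were seen. Alternatives changed the hashtag rule, filter, gate, UMI minimum, scaling, cell weighting and top cells, and left out cells rich in plasma cell markers (chosen after the data were seen).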

Additional observations from a re-analysis of the deposited data

Results flagged for a closer look

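Dusp1 in mature neutrophils stood above sham on day 3, with a CPM ratio of 1.46, and below it on day 7 (0.508) and day 14 (0.677), each with an interval that excludes 1. The days lie on opposite sides of the same sham pool, and the difference between them was not tested, since each is 1 pool. On day 3 the ratio was 1.26 (1.12 to 1.41) in granule-poor and 0.798 (0.560 to 1.14) in granule-rich cells. The part of their mixture in the day 3 ratio was not tested.

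The 92 barcodes that passed the cell filter without a clear hashtag belong to no condition. Over the sham pool, all lineages together, they held more Sgk1 (98.7 against 57.3 CPM, a ratio of 1.72, 1.33 to 2.22), more Dusp1 (470 against 333 CPM, 1.41, 1.26 to 1.58) and more Txnip (257 against 210 CPM, 1.22, 1.05 to 1.42). The other 5 genes had intervals that include 1. The day 3 pool, all lineages together, held Dusp1 at 460 CPM, near the level of these barcodes, with Sgk1 at 50.6 and Txnip at 219 CPM. The mixture of cells in these barcodes was not matched to that of sham.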

How the results depend on the processing

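No paired analysis was possible because each condition is 1 pool with no replicate number. In B cell precursors on day 7 the count of 6 called members stayed within 1.5 times under all 14 alternatives, but the members called changed. The median log2 ratio ranged from −1.27 to −0.68. Tsc22d3 ranged there from 0.247 to 0.625, Txnip from 0.416 to 0.685, Sgk1 from 1.44 to 1.99 and Nr3c1 from 0.388 to 0.928. The call of Nr3c1 ended in non-cycling cells (0.928) and with the mean of per-cell CPM (0.892). With that mean the calls of Txnip (0.685) and Sgk1 (1.44) ended as well. Fkbp5 then gained a call, at 5.11 CPM against 10.3 in sham. In mature neutrophils Dusp1 ranged from 1.26 to 1.96 on day 3, from 0.471 to 0.692 on day 7 and from 0.560 to 0.940 on day 14. The members' median in B cell precursors changed sign on day 3 (−0.26 to 0.05) and day 14 (−0.17 to 0.16).

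Counts of called members that moved by over 1.5 times were these. In mature neutrophils on day 3 the count of 1 became 3 with the stricter gate and without the minimum of marker UMIs per 10000, 2 without the top cell of each gene, and 0 at a UMI minimum of 50. On day 7 the count of 3 became 1 without the minimum of marker UMIs per 10000. On day 14 the count of 1 became 3 under the stricter hashtag rule, 2 with the stricter gate, a UMI minimum of 10, totals without mitochondrial, ribosomal protein and granule genes, median-of-ratios scaling, the mean of per-cell CPM or without the top cell, 4 in granule-poor cells, and 0 at a UMI minimum of 50. In B cell precursors on day 3 the count of 2 became 1 under the stricter hashtag rule, without the minimum of marker UMIs per 10000 or in non-cycling cells, and 0 with at most 5% mitochondrial UMIs or at a UMI minimum of 50. On day 14 the count of 1 became 2 at a UMI minimum of 10, and 0 with the mean of per-cell CPM or in non-cycling cells. The cause of each was not tested, apart from a changed UMI minimum, which changes the members measured. None of the ratios to sham called in the 6 comparisons changed sides under these alternatives, whereas some uncalled ones near 1, of Nr3c1, Per1, Sgk1, Dusp1 and Txnip, did. With equal cell weighting 15 levels over all pools moved beyond the spread between pools and 41 did not, such as Dusp1 in mature neutrophils, from 1083 to 1648 CPM. Without thinning 47 shares of cells with a UMI moved and 9 did not. Counts of Fkbp5, Per1 and Klf9 limit what can be seen of them.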
